A study of Mus musculus with 8 samples.

Results

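Procollagen chains are modified, folded and trimmed by a small set of enzymes and chaperones before they can form fibrils, and 9 genes of that set were followed here: the prolyl 4-hydroxylase alpha subunits P4ha1, P4ha2 and P4ha3, the lysyl hydroxylases Plod1, Plod2 and Plod3, the chaperone Serpinh1, the proteinase Bmp1 and its enhancer Pcolce. They were chosen by gene name, and each was read from the brightest array feature (transcript cluster) that carries its symbol and no other. Such a feature was found for 8 of the 9 genes, out of 30142 genes with a feature of 1 symbol. Plod3 shares its feature with the symbol of a microRNA gene and has no value here.

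Prolyl 4-hydroxylation stabilises the collagen triple helix at body temperature, and the reaction needs iron, oxygen and ascorbate. Lysyl hydroxylation prepares the lysines that later form cross-links and carry sugars, and the product of Plod2 acts on the telopeptides at the chain ends, which sets the type of cross-link. Serpinh1 encodes HSP47, which binds folded procollagen in the endoplasmic reticulum, while Bmp1 cuts the C-propeptide of fibrillar procollagens outside the cell and Pcolce speeds that cut. In the aortic wall, smooth muscle cells and adventitial fibroblasts are the main makers of fibrillar collagen.

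Male mice aged 10 weeks, of C57BL/6J background, gave the ascending aortae from which RNA was taken. They were bred from heterozygous Fbn1mgR/+ parents. The groups were 4 arrays of Fbn1mgR/mgR (mgR611, mgR612, mgR613 and mgR614) and 4 of wild-type mice (WT675, WT676, WT742 and WT744), with no treatment named. The mgR allele lowers the amount of fibrillin-1 in every tissue and is used to model severe Marfan syndrome. Whether each array holds RNA of its own animal is not stated, so the p-values below reflect the spread among arrays, part of which may be technical. The transcript of Fbn1 was not analysed here and gives no check of the genotypes.

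Every array gave log2 signals between 2.11 and 19.93, with a median of 3.95 to 4.07, and correlations across features were 0.989 to 0.993 within and 0.985 to 0.990 between genotypes. Olfactory receptor genes, taken as a reference for dim signals, had a median of 3.38 and a 95th percentile of 4.11. A positive log2 difference means a higher signal in Fbn1mgR/mgR than in wild-type, and differences were fitted with limma over the 32957 features above the median signal. Of these, 460 rose (1.4% of those tested) and 153 fell (0.464%) at a limma adjusted p under 0.05, together 1.86%. Leaving out mgR613, mgR614, WT675, WT676, WT742 or WT744 gave 248, 257, 209, 244, 251 and 222 that rose. The number that fell was 86, 73, 84, 68 and 56 without mgR611, mgR613, mgR614, WT675 and WT744 in turn. Contractile smooth muscle markers, 8 in all with 0 past the limma threshold, averaged 13.0 to 13.7 across wild-type aortas against 12.34 to 13.3 across mutants. The fibroblast marker mean was 14.5 to 14.8 in wild-type against 14.3 to 15.1, and the endothelial mean 10.2 to 10.9 against 9.48 to 10.6 (0 of 6 tested past the threshold in each). Striated muscle markers were at 6.09 to 6.79 in wild-type against 5.41 to 5.90, without overlap. Of 8 tested, 1 fell (Tcap, named after its values were seen). Tcap had by far the widest gap of that list, with group means of 11.56 (wild-type) and 7.30 (Fbn1mgR/mgR). Tnnt2 alone ran the other way, with 9.57 and 10.44. The gap in the striated muscle mean thus rests largely on Tcap, and whether the share of that tissue differed was not tested. The part of these shifts in the members' differences was not tested. Of 13 macrophage markers, 10 rose, and their mean was 9.46 to 10.3 in the mutant against 7.64 to 8.04 in the wild-type arrays. Brown fat markers were highest in mgR614 (9.56) and WT676 (9.88) and lay between 6.24 and 7.78 in the other arrays. In whole tissue, a change in the share of a cell type and a change of RNA per cell cannot be told apart.

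By limma, 0 of the 8 genes rose (1.4% of all tested features did) and 0 fell (0.464%), which lies near those shares. Of them, 7 had higher and 1 had lower mean signals in Fbn1mgR/mgR, with differences from -0.16 (P4ha2) to 0.52 (Serpinh1) and a median of 0.27, where 46.1% of all tested features were above 0 and their median was -0.018. P4ha3, Pcolce and Serpinh1 were higher at an unadjusted limma p under 0.05 (7.59% of all features were), and 0 were lower (6.68%). That count was 1 without mgR613 or WT742. In P4ha3 and Pcolce every mutant array lay above every wild-type array, which held for 5.26% of all features (3.65% for the opposite order, seen in 0 of the 8 genes). P4ha3 passed the filter on dim features through its mutant arrays, so its place in both counts is a description only. Without P4ha3, Pcolce and Serpinh1 remain at an unadjusted limma p under 0.05, and Pcolce alone is without overlap. The median over the other genes was 0.25. The median standard error of the 8 differences was 0.173, against 0.150 over all features.

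**Figure D1:**
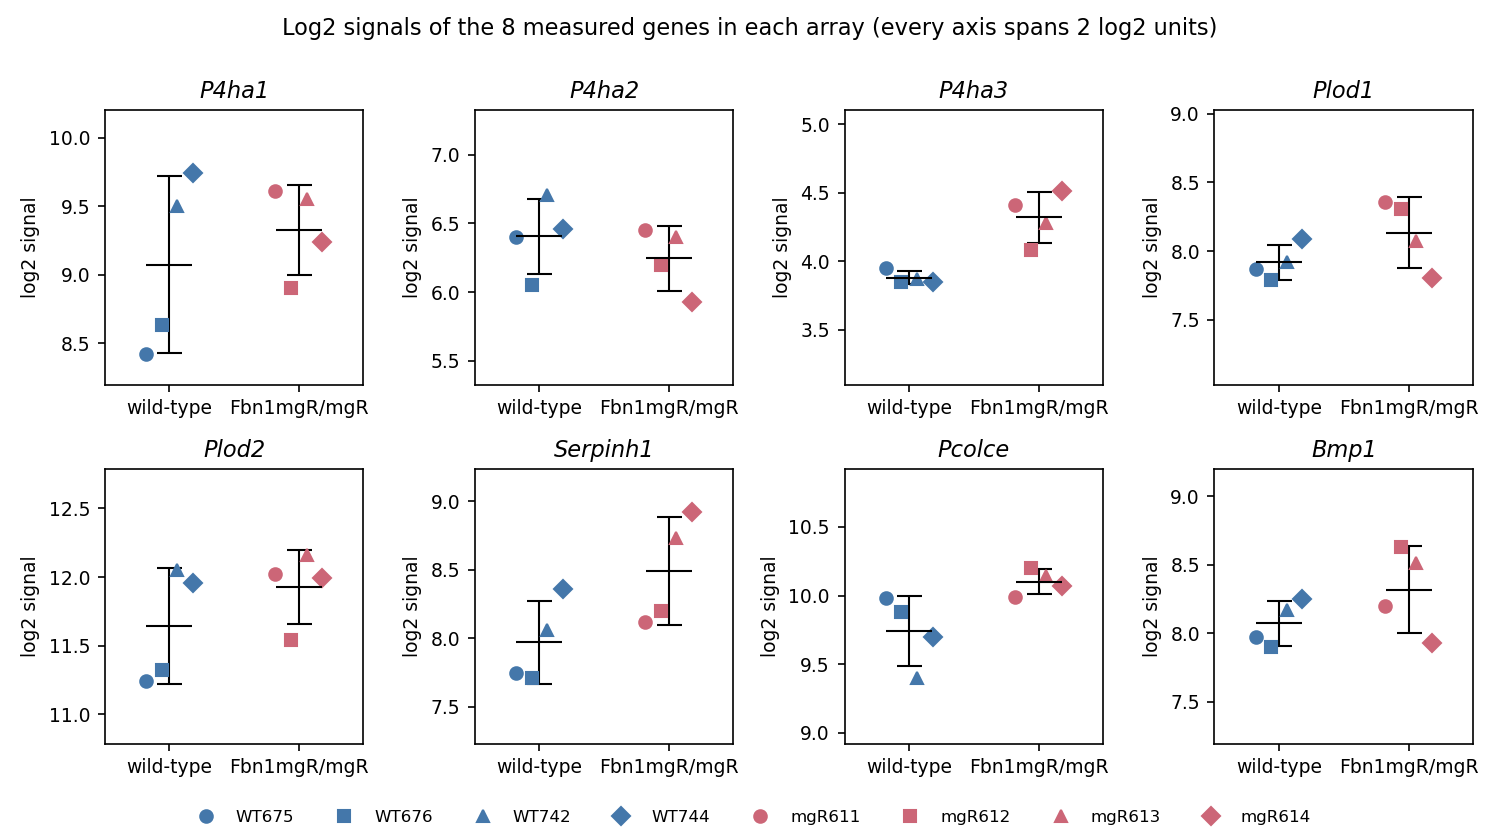
Log2 signal (vertical axis) of each of the 8 genes in the 4 wild-type (blue) and 4 Fbn1mgR/mgR arrays (red), with a symbol per array; horizontal lines are group means and bars are SD. The groups are apart in P4ha3 and Pcolce and overlap in the other 6 genes, and the wild-type signals of P4ha1 fall into 2 pairs.

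The prolyl 4-hydroxylase alpha subunits carry the catalytic site of the enzyme and differ in the tissues that use them. The bases upstream of the 3 genes in RefSeq (GRCm38.p6) are shown so that these paralogs can be compared, with capitals marking letters searched for on both strands: ACGTG, the core bound by hypoxia-inducible factors, GGGCGG, the GC box, CCAAT, GAANNTTC, a pair of heat shock units, and CAGAC, the core of the SMAD element. Neighbouring or overlapping matches merge into 1 stretch of capitals.
P4ha1 (chr10:59323046-59323196, plus strand): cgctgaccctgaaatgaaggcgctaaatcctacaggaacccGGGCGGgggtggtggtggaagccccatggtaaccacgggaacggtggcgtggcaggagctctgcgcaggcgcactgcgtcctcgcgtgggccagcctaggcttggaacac
P4ha2 (chr11:54100674-54100923, plus strand): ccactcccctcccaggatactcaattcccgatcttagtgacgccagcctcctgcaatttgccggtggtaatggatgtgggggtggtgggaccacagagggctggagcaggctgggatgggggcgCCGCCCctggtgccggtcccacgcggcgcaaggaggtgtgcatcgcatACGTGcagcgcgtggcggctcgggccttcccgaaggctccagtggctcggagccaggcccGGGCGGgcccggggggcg
P4ha3 (chr7:100285270-100285488, plus strand): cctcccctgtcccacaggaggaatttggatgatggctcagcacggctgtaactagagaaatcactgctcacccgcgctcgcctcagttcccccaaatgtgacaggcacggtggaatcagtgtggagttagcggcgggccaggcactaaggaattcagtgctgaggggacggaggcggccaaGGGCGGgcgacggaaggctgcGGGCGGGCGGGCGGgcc
The stretch upstream of P4ha3 holds 4 GC boxes, of which 3 overlap in a run, and no ACGTG. The stretch upstream of P4ha2 holds 2 GC boxes and 1 ACGTG, and that of P4ha1 holds 1 GC box. All 3 stretches are shorter than the windows of 300 bases, so none of these counts is that of a whole window. Those of P4ha1 and P4ha3 also stop short of the transcript start. In the whole windows of 300 bases, ACGTG occurs 1 time in P4ha1, 2 times in P4ha2 and 0 times in P4ha3. The ACGTG of P4ha1 begins 16 bases before the transcript start, in the part not shown. GGGCGG occurs 2, 4 and 5 times in these windows.

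P4ha3 had signals of 4.41, 4.08, 4.28 and 4.51 in mgR611, mgR612, mgR613 and mgR614 and of 3.95, 3.85, 3.87 and 3.85 in WT675, WT676, WT742 and WT744. The mutant arrays were all higher, but 4 of 4 wild-type and 1 of 4 mutant signals lay at or below the 95th percentile of the dim reference, so the size of the difference is uncertain. The wild-type mean of 3.88 lies below the filter on mean signal, so P4ha3 was tested only through its mutant arrays. Its difference and any pass are therefore a description and no support for a rise. The log2 difference was 0.44 (SE 0.101, 95% interval 0.21 to 0.67, limma adjusted p = 0.0736), or 1.36-fold. Without mgR612, whose signal was the lowest among the mutants, P4ha3 was at 0.52 and passed (limma adjusted p = 0.0374). It also passed after quantile normalization (0.45, adjusted p = 0.0378), after median centring (0.44, adjusted p = 0.0414) and where only features with 1 symbol were tested (0.44, adjusted p = 0.0408), and over all 18 alternatives in limma the adjusted p was 0.0374 to 0.188. The macrophage marker mean was also higher in all mutant arrays, and its part in this difference was not tested.

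P4ha1, the alpha subunit of the widely used form of the enzyme, had signals of 9.61, 8.90, 9.55 and 9.24 in the mutant arrays and of 8.42, 8.63, 9.50 and 9.74 in the wild-type arrays, in the order given above. The wild-type arrays fell into a low pair, WT675 and WT676, and a high pair, WT742 and WT744, and the mutant arrays lay between the lowest and the highest of them. The difference was 0.25 (SE 0.315, 95% interval -0.46 to 0.97, limma adjusted p = 0.802), and it was 0.035 without WT675 and 0.48 without WT744. A change up to 1.96-fold upward or to 0.725 of the wild-type signal stays within that interval.

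P4ha2, the alpha subunit of the second form, had signals of 6.45, 6.20, 6.40 and 5.93 in the mutant arrays and of 6.40, 6.05, 6.71 and 6.46 in the wild-type arrays. The groups overlapped, and the lowest signal belonged to mgR614. The difference was -0.16 (SE 0.170, 95% interval -0.55 to 0.23, limma adjusted p = 0.759). The sign of this difference held in all 19 alternatives, with values from -0.28 without WT676 to -0.055 without mgR614.

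Whether paralogs changed unequally was tested on the log2 ratio of a pair within each array, with exact two-sided permutation tests over 70 labellings. Of 6 pairs planned, 4 could be formed without Plod3. The ratio of P4ha3 to P4ha2 was -2.04, -2.12, -2.12 and -1.42 in the mutant and -2.45, -2.20, -2.84 and -2.61 in the wild-type arrays. The mean ratio differed by 0.60 (SE 0.216, exact permutation p = 0.0286, the smallest that 4 against 4 arrays allow), which did not pass the adjustment over 4 pairs (exact permutation, adjusted p = 0.114). Because the wild-type signals of P4ha3 were within the dim range and it was tested through its mutant arrays, this ratio is a description only. The same holds for the ratio of P4ha3 to P4ha1. For P4ha2 against P4ha1 the difference was -0.41 (SE 0.292, exact permutation p = 0.286), for P4ha3 against P4ha1 it was 0.19 (SE 0.364, exact permutation p = 0.600) and for Plod2 against Plod1 it was 0.068 (SE 0.278, exact permutation p = 0.83), with adjusted p of 0.571, 0.800 and 0.83. The last 2 turned sign when single arrays were left out.

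**Figure D2:**
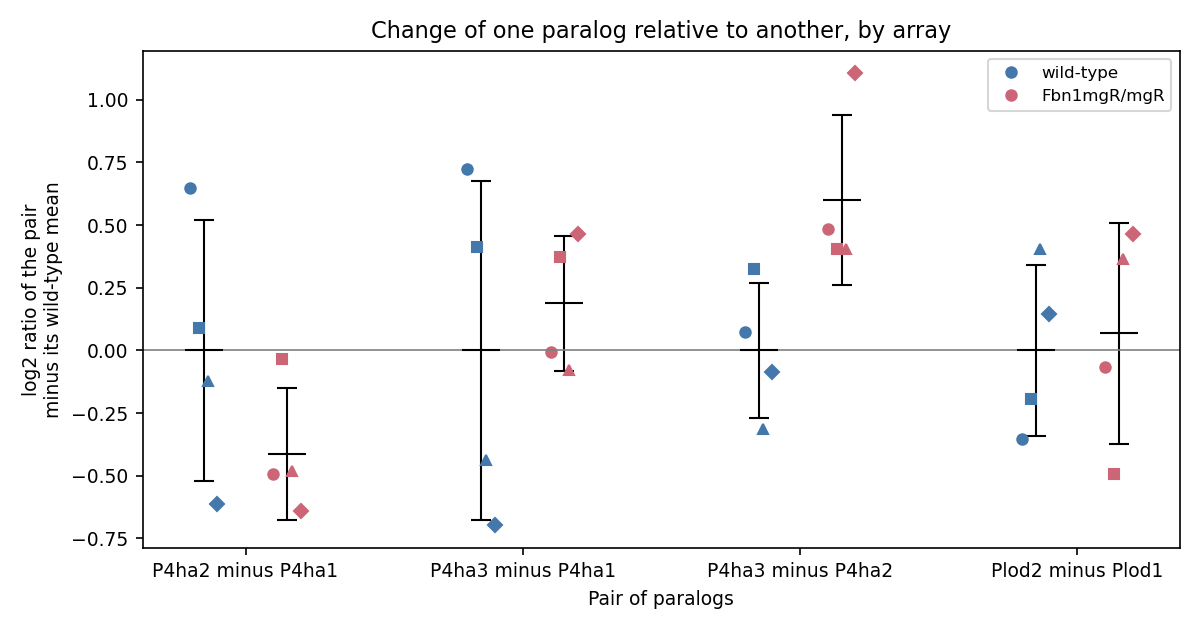
Log2 ratio of each pair of paralogs per array, minus the mean of the wild-type arrays (vertical axis), for the 4 pairs tested; blue is wild-type, red is Fbn1mgR/mgR, lines are means and bars are SD. The mean P4ha3 to P4ha2 ratio differs by 0.60, with P4ha3 in the dim range in wild-type, and the other 3 pairs overlap.

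Lysyl hydroxylases were represented by Plod1 and Plod2. Plod1, whose product acts on lysines within the helix, had signals of 8.36, 8.31, 8.07 and 7.80 in the mutant and of 7.87, 7.79, 7.92 and 8.09 in the wild-type arrays. Only mgR611 and mgR612 lay above all wild-type arrays, and mgR614 lay near the lowest of them. The difference was 0.22 (SE 0.151, 95% interval -0.13 to 0.56, limma adjusted p = 0.594), with 0.14 without mgR611 and 0.33 without mgR614.

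Plod2, the telopeptide lysyl hydroxylase, had signals of 12.02, 11.54, 12.16 and 11.99 in the mutant and of 11.24, 11.32, 12.05 and 11.96 in the wild-type arrays. As for P4ha1, WT675 and WT676 were low, WT742 and WT744 were high, and mgR612 was the lowest mutant array. The difference was 0.29 (SE 0.226, 95% interval -0.23 to 0.80, limma adjusted p = 0.653), with 0.15 without WT675 and 0.42 without WT742.

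The likeness of P4ha1 and Plod2 was the closest among the 28 pairs of the 8 genes. Over deviations from the genotype means in the 8 arrays, Pearson's r was 0.949 (exact permutation p = 0.0156 over 576 pairings within genotypes, adjusted p = 0.437 over 28 pairs) and Spearman's rho was 0.929 (exact permutation p = 0.0278, adjusted p = 0.502). Without WT675 and WT744, the arrays farthest from the median of these deviations in P4ha1, r was 0.954. The within-genotype r of all 28 pairs ran from -0.856 (P4ha3 with Bmp1) to 0.949 with a median of 0.0935, and 15 were above 0. The lowest involves P4ha3, whose wild-type signals lay within the dim range, and it was -0.592 without mgR612 and mgR614. Pcolce ran opposite to Plod2 (r = -0.826, exact permutation p = 0.0330, adjusted p = 0.462) and to P4ha1 (r = -0.773, exact permutation p = 0.0972, adjusted p = 0.494). No pair passed the adjustment, and all pairs share the same arrays and their normalization.

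**Figure D3:**
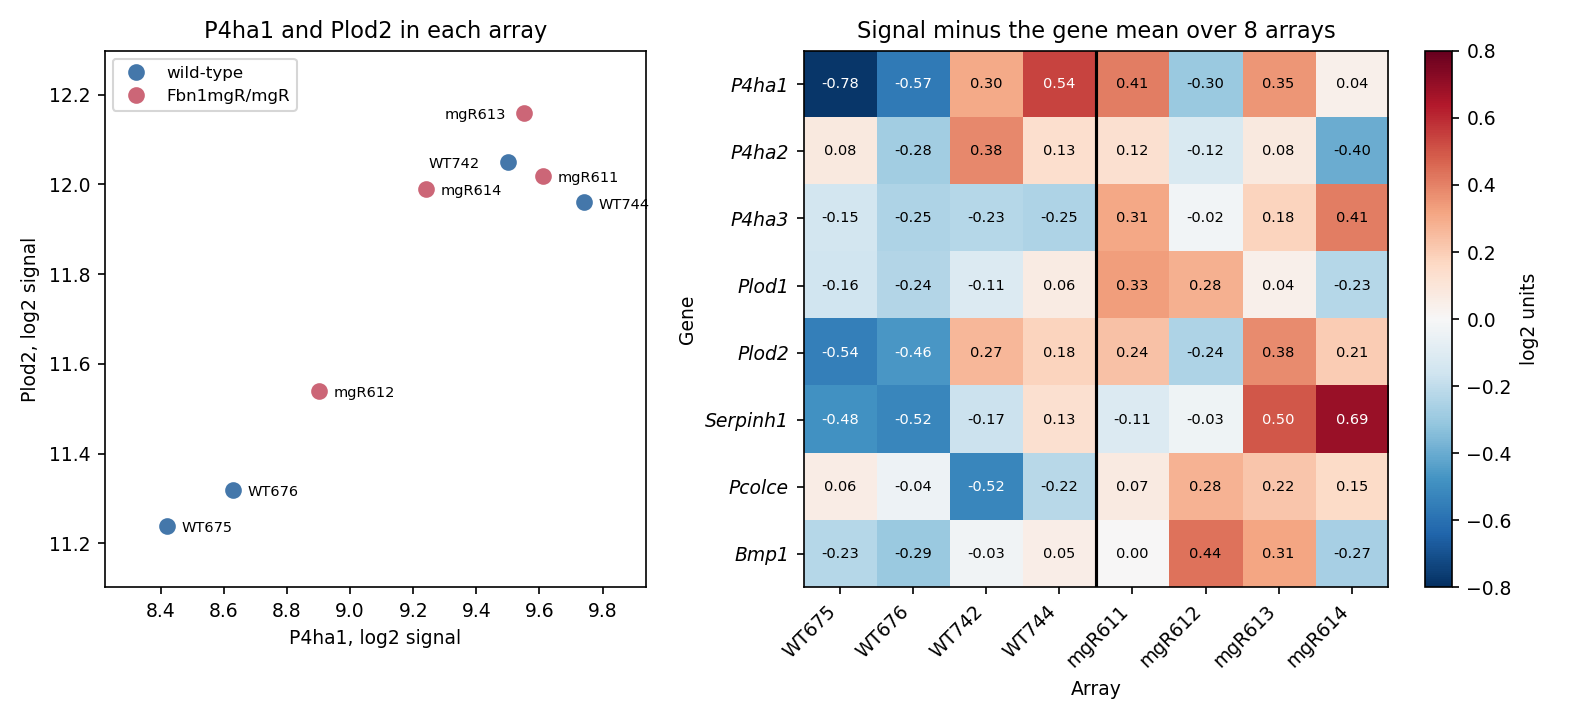
Left, log2 signals of P4ha1 (horizontal axis) and Plod2 (vertical axis) in each array, blue for wild-type and red for Fbn1mgR/mgR. Right, the signal of each gene minus its mean over 8 arrays, in log2 units, by array; WT675 and WT676 are low in P4ha1, Plod2 and Serpinh1, and mgR612 is below the mean in P4ha1 and Plod2.

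Serpinh1 had the largest difference of the 8 genes. The bases before its start are shown with the same capitals, since heat shock and stress signals are known to act on this chaperone gene.
Serpinh1 (chr7:99353240-99353489, minus strand): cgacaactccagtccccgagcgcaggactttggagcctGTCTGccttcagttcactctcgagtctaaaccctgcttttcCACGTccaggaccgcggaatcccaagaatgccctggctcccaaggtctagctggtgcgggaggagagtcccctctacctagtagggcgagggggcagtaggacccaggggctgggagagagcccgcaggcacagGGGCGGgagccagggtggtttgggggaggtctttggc
This stretch holds 1 CAGAC, 1 ACGTG and 1 GC box, and no GAANNTTC. ACGTG was found in 4 of the 7 genes of the set with a RefSeq window of 300 bases, against 19.6% of all 32851 windows of that length, and GGGCGG in 6 against 35.7%. CCAAT was found in 1 (37.4% of all windows), GAANNTTC in 1 (7.86%) and CAGAC in 2 (49.6%). Plod3 is among these 7 genes, while Plod2 and Bmp1 are not.

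Serpinh1 had signals of 8.12, 8.20, 8.73 and 8.92 in the mutant and of 7.75, 7.71, 8.06 and 8.36 in the wild-type arrays. WT744 lay above mgR611 and mgR612, while mgR613 and mgR614 were above every wild-type array. The difference was 0.52 (SE 0.227, 95% interval 0.0075 to 1.04, limma adjusted p = 0.342), or 1.44-fold, with 0.38 without mgR614 and 0.65 without mgR611. A second, dimmer feature with the same symbol had signals of 7.54, 7.78, 7.80 and 7.84 in the mutant and of 7.40, 7.43, 7.43 and 7.25 in the wild-type arrays. There the groups did not overlap, and the difference was 0.36 (SE 0.113, limma adjusted p = 0.184). Both features thus gave higher means in the mutant, and neither passed.

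Removal of the C-propeptide was represented by the proteinase and its enhancer. Pcolce had signals of 9.99, 10.20, 10.14 and 10.07 in the mutant and of 9.98, 9.88, 9.40 and 9.70 in the wild-type arrays. The mutant arrays were all higher, by 0.01 between mgR611 and WT675, and the wild-type arrays were spread more widely (SD 0.255 against 0.0906, n = 4 each). The difference was 0.36 (SE 0.148, 95% interval 0.023 to 0.70, limma adjusted p = 0.312), or 1.28-fold, and 0.25 without WT742.

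Bmp1, which also cuts prolysyl oxidase to its active form, had signals of 8.20, 8.63, 8.51 and 7.93 in the mutant and of 7.97, 7.90, 8.17 and 8.25 in the wild-type arrays. Here mgR612 was the highest and mgR614 lay among the lowest, and the groups overlapped. The difference was 0.24 (SE 0.175, 95% interval -0.15 to 0.64, limma adjusted p = 0.606), with 0.14 without mgR612 and 0.37 without mgR614.

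The genes that work with these enzymes were described by a list of 32, of which 30 had a feature with 1 symbol and 27 passed the filter on dim features. Of those 27, 1 rose by limma, the substrate gene Col1a1 (1.4% of all features rose), and 0 fell (0.464%). With no adjustment, 8 had a limma p under 0.05 upward, against 7.59% of all features, and 0 downward, against 6.68%. The upward count was 5 without mgR613, WT675 or WT676 and after median centring. The median difference of the 27 was 0.11, and 22 were above 0 (46.1% of all features). In 7 of the 27 every mutant array lay above every wild-type array (5.26% of all features), and in 0 below (3.65%).

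The prolyl 3-hydroxylase complex modifies single prolines in the chains and helps them fold. None of the 6 genes listed under this heading passed limma (1.86% of all features did), with a median of 0.081. At an unadjusted limma p under 0.05, 1 was higher, against 7.59% of all features. P3h2, a prolyl 3-hydroxylase, had signals of 10.40, 9.69, 10.79 and 9.81 in the mutant and of 8.67, 9.06, 9.87 and 9.63 in the wild-type arrays, so that WT742 lay above mgR612 and mgR614. Its difference was 0.86 (SE 0.326, limma adjusted p = 0.269) and 0.65 without WT675. P3h4, also on this list, was at -0.34 (SE 0.200, limma adjusted p = 0.509).

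Among 5 tested genes of folding and modification in the endoplasmic reticulum, 0 passed limma (1.86% of all features did) and the median was 0.29. With no adjustment, 3 were higher at a limma p under 0.05 (7.59% of all features). In 4 of the 5 the mutant arrays were all higher (5.26% of all features): Creb3l1, P4hb, Fkbp14 and Colgalt1, named here after their values were seen. P4hb, protein disulfide isomerase and the beta subunit that all alpha subunits need, had signals of 12.84, 13.11, 13.30 and 13.02 in the mutant and of 12.80, 12.78, 12.66 and 12.76 in the wild-type arrays, a difference of 0.32 (SE 0.118, limma adjusted p = 0.263). Creb3l1, a transcription factor that is activated at the endoplasmic reticulum and acts on collagen genes, had 8.70, 8.92, 8.57 and 8.76 in the mutant and 8.10, 8.54, 8.16 and 8.0 in the wild-type arrays. Its difference was 0.54 (SE 0.149, limma adjusted p = 0.136).

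The export genes, which build the large carriers that procollagen needs, lay close to 0. None of 5 passed limma (1.86% of all features did), with differences from -0.14 to 0.11. At an unadjusted limma p under 0.05 there were 0, against 14.3% of all features in either direction. Sec24d, a coat protein of these carriers, was at 0.11 (SE 0.146, limma adjusted p = 0.822), ranging with 1 array left out from 0.045 (without mgR611) to 0.205 (without mgR614). Mia2 was at -0.14 (SE 0.143, limma adjusted p = 0.756), ranging from -0.050 (without WT676) to -0.21 (without WT675).

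Of the other procollagen proteinases and enhancers, 4 were tested and 0 passed limma (1.86% of all features did). Before adjustment, 1 was higher at a limma p under 0.05, against 7.59% of all features. Adamts3, a proteinase that removes N-propeptides, had signals of 5.11, 5.48, 5.28 and 4.97 in the mutant and of 4.58, 4.79, 4.78 and 4.72 in the wild-type arrays. The mutant arrays were all higher, by 0.49 on average (SE 0.122, limma adjusted p = 0.0949; 0.0525 to 0.225 over its alternatives in limma). Tll1, a relative of Bmp1, was at -0.33 (SE 0.211, limma adjusted p = 0.554) and -0.54 without WT742.

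The substrates were 7 fibrillar collagen chain genes, all with differences above 0 (46.1% of all features) and a median of 0.26. The smallest were Col5a3 at 0.048 and Col11a1 at 0.08. In Col11a1, 3 of 4 wild-type and 1 of 4 mutant signals lay at or below the 95th percentile of the dim reference. Col1a1 had signals of 9.29, 9.32, 9.12 and 8.98 in the mutant and of 8.19, 8.01, 8.17 and 8.41 in the wild-type arrays and rose by 0.98 (SE 0.135, limma adjusted p = 0.00993), or 1.98-fold. It stayed past the threshold in all 18 alternatives (limma adjusted p 0.00519 to 0.0384). Col5a2 was at 0.50 (SE 0.144, limma adjusted p = 0.153) and Col1a2, whose product joins that of Col1a1 in type I collagen, at 0.36 (SE 0.157, limma adjusted p = 0.335). The 95% interval of Col1a1, 0.68 to 1.29, lies above the point estimates of all 8 hydroxylase, chaperone and trimming genes. The intervals of Serpinh1, P4ha1, Plod2 and Pcolce, with upper ends of 1.04, 0.97, 0.80 and 0.70, overlap it. A difference between Col1a1 and any of the 8 genes was not tested.

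**Figure D4:**
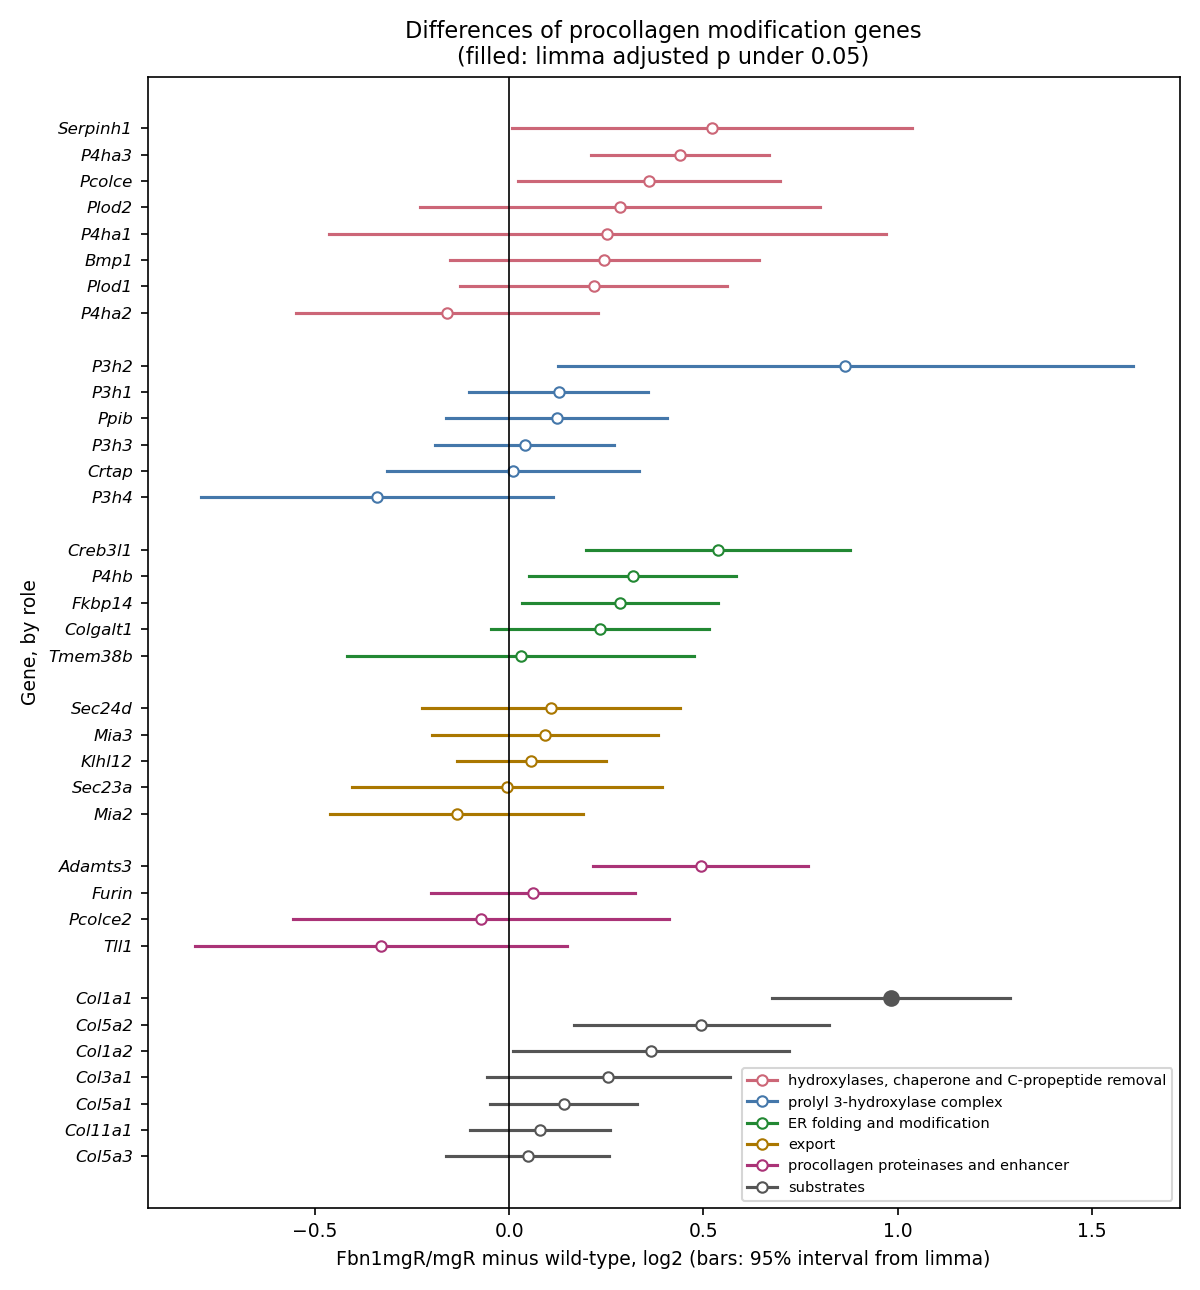
Log2 difference, Fbn1mgR/mgR minus wild-type (horizontal axis), with its 95% interval from limma, for the 8 genes and the 27 tested partners grouped by role; a filled point passed the adjusted threshold. The filled point is Col1a1 at 0.98, and the export genes lie between -0.14 and 0.11.

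By the mean of the 8 centred profiles, the genes most alike over the 8 arrays among 12306 named genes were Cpeb2 (r = 0.955), Rcan1 (0.954), Gldn (0.949), Serpini1 (0.947) and Homer1 (0.947). Over deviations from the genotype means they were Msrb1 (0.977), Plekha1 (0.975), Ppfia1 (0.973), Wif1 (0.972) and Mark3 (0.965). This second likeness leaves out the genotype difference: over the 8 arrays their r was 0.265, 0.654, 0.904, -0.601 and 0.195 in that order. Wif1 was lower in the mutant (-2.47, limma adjusted p = 0.000791). Both lists hold the highest of many correlations over few arrays that share their normalization, and they are given as a description. That mean profile was lowest in WT676 (-0.33) and WT675 (-0.28) and highest in mgR613 (0.26), while WT744 (0.079) lay above mgR612 (0.035) and mgR614 (0.076).

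RefSeq places P4ha3 and Serpinh1 on chromosome 7 with 17 protein-coding genes between them, and Pcolce and Plod3 on chromosome 5 with 22 between them. The others lie on chromosomes 10 (P4ha1), 11 (P4ha2), 4 (Plod1), 9 (Plod2) and 14 (Bmp1).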

How the data were processed

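The authors deposited normalized log2 values, 1 per transcript cluster and array, from Affymetrix Clariom D mouse arrays. Transcriptome Analysis Console is the software in the submitters' processing notes; its version, the normalization, the probe summary and the build are not given there. Of 65956 clusters, 30604 carry 1 symbol in the platform annotation, 2146 several and 33206 none, and 22818 matched a RefSeq gene by identifier.

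Clusters above the median mean signal (4.01) were fitted with limma 3.58.1 in R 4.3.3 (lmFit, then eBayes with a trend on intensity), with Benjamini-Hochberg adjustment over all 32957 tested, with a threshold of 0.05. Every adjusted p of a gene is limma's. The 8 genes are all named; partners were named where they passed, with up to 2 more of the smallest p per role. Members and lists were chosen with earlier results of these data known. The fit was tested on simulated data of Fbn1mgR/mgR against wild-type (32978 clusters tested). It found 48 of 100 shifts of 1 log2 unit and 73 of 100 shifts of 2, none with a wrong sign, and called 7 unshifted clusters. Promoter windows are those of RefSeq (GRCm38.p6), 300 bases long, and the printed stretches end just before the RefSeq span of the gene. For P4ha1 and P4ha3 that is 99 and 31 bases short of the transcript start on which the window is set. In 1911 of 1911 overlapping windows of opposite strands the letters were reverse complements. Python 3.11.15, pandas 2.3.3 and matplotlib 3.10.9 were used. The alternatives were other eBayes settings, array weights, other filters, other normalizations, a brown fat covariate, another row per gene and each array left out. A fit with the variance prior taken from all clusters was added after the data were seen.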

Additional observations from a re-analysis of the deposited data

How the results depend on the processing

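No paired analysis was possible because the genotypes share no replicate numbers. Over all clusters, the number that rose was 209 to 441 and the number that fell 56 to 121 with each array left out, and 99 fell without a filter on dim clusters. With the variance prior taken from all clusters, an alternative chosen after seeing the data, 507 rose and 184 fell, and P4ha3 was at an adjusted p of 0.0656 in limma. Of the 8 genes, 1 (P4ha3) passed upward where only clusters with 1 symbol were tested, after quantile normalization and after median centring. Over all clusters, 542 of 18122, 523 of 32976 and 443 of 32976 rose in these settings. With each array left out, 0 to 1 of the 8 genes passed. P4ha3 is past the filter only through its mutant arrays, so its passes are a description and no support for a rise. Without a filter on dim clusters and with only the upper quartile, 0 of the 8 genes passed, and P4ha3 is not tested in the latter. The signs of the 8 differences held in all alternatives run. The pair Plod2 minus Plod1 ran from -0.065 to 0.26 and P4ha3 minus P4ha1 from -0.045 to 0.43 with each array left out, which turns their sign; both were far from the threshold. With 4 arrays per genotype, precision is limited throughout.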
